A study of Homo sapiens with 18 samples.

Results

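The genes described here are the sensors of the unfolded protein response and the transcription factor XBP1: EIF2AK3, which encodes the kinase PERK; ERN1, which encodes the kinase and RNase IRE1 alpha; ATF6 and ATF6B, which encode the membrane-bound factors ATF6 alpha and ATF6 beta; and XBP1, whose mRNA IRE1 cuts. They were found by symbol in the deposited count table, which held 1 row for each, and they are 5 of its 60662 genes. All 5 passed the filter on low counts, as 5 of the 18592 genes tested. RNA was sequenced from MCF10A, an immortalised, non-malignant human breast epithelial cell line. The labels name no genetic change or drug in any group. All cells were plated on compliant gels that carried 50 µg/ml Matrigel, a laminin-rich basement membrane extract, and the medium was changed 1 h after plating. In the 2D groups the new medium held no added matrix, and in the 3D groups it held 2% Matrigel. Cells were collected at timepoints 1, 2 and 3, with 3 libraries in each of the 6 groups. The protocol lists harvests at 3, 12 and 21 h, and these match the timepoints only by their order. The replicate number carries 1 date in the labels for all groups, so libraries of one number were compared with each other as well.

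The endoplasmic reticulum folds secreted and membrane proteins, and cells with a large secretory or matrix-producing load, such as breast epithelium, depend on its capacity. PERK and IRE1 are kinases that span its membrane and become active when unfolded proteins draw away the chaperone BiP; PERK phosphorylates eIF2 alpha, which lowers protein synthesis but favours translation of ATF4, and IRE1 removes a short intron from XBP1 mRNA in the cytosol so that the active factor XBP1s is made. ATF6 and ATF6B instead move to the Golgi, where the proteases MBTPS1 and MBTPS2 release their transcription factor domains. These steps act on proteins and on splicing, so the mRNA levels below measure how much of each transcript was present and not whether a sensor was active.

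The XBP1 intron is shown first because gene counts cannot see whether it was removed. It lay on chromosome 22, from 28796127 to 28796152 of GRCh38 on the minus strand, in exon 4 of transcript XBP1-201, within its coding sequence. In the sequence below, read from the transcripts of GENCODE release 29, the capitals mark the 26 bases of the intron.
XBP1 intron: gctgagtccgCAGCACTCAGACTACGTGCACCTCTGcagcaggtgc
Repeats at its ends leave the exact placement open to the base, and the one shown has the letters CNGCNGN, cut after the third base, at both ends. Of the 7 annotated XBP1 transcripts, 4 kept the intron, 2 lacked it and 1 ended outside it. The deposited table gives 1 count per gene, so all XBP1 values below sum both forms.

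The promoters of XBP1 and EIF2AK3 are shown because XBP1 held the only ER stress response element among the 5 genes and EIF2AK3 the most CCAAT boxes. Each window is the 250 bases before the RefSeq start on GRCh38.p14, written 5′ to 3′ on the gene's strand, with the matches in capitals. XBP1 is at chr22:28800570-28800819 and EIF2AK3 at chr2:88627465-88627714, both on the minus strand. The last bases of the XBP1 window lie inside the gene as the count table places it, which ends at 28800597. RefSeq has 2 promoter entries for XBP1, and the one nearest that end is shown.
XBP1 promoter: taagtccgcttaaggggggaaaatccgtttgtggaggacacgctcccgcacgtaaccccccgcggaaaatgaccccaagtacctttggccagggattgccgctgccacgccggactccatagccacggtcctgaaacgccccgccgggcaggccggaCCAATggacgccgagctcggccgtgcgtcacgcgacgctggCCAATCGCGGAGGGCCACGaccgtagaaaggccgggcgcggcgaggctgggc
EIF2AK3 promoter: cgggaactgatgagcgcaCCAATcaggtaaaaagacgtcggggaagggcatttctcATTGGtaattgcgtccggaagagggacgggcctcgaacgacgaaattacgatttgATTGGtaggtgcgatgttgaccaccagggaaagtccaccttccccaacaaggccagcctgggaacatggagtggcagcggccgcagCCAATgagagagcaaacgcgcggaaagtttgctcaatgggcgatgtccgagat
All searches covered both strands. The ER stress response element, CCAAT and CCACG with 9 bases of any kind between them, matched once in XBP1, from 52 to 34 bases before the start, and in 0.0747% of 34788 different promoter windows of that length (26 windows). The CCAAT box inside it is also counted among the 2 CCAAT boxes of XBP1. The box CCAAT matched 4 times in EIF2AK3, once each in ERN1 and ATF6B, and not in ATF6. It was present in 32% of promoter windows, and 0.877% held 4 or more. The letters TGACGT matched once in ATF6 and in 7.09% of windows. Neither ATTGG and CCACG with 1 base between them (0.0517% of windows) nor TGACGTGG (0.618%) matched in any of the 5. A match is a string of letters and not a measured binding site.

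Gene counts summed to 49811449 to 93894215 in a library, which is 4.73 to 5.73 times the library total in the file header. Levels below are TMM-scaled CPM, counts relative to library size, set side by side for 1 gene only and never between genes. The tests used 17 libraries: replicate 1 of 2D timepoint 3 was kept out, as GEO's labels tie it to the count table and to no other deposited table, and that group has n = 2. All 9 markers of epithelial and basal breast cells passed the filter on low counts, and their summed level was 6429 to 7655 unscaled CPM in 3D at timepoint 2 against 7976 to 9725 in 2D, and 5086 to 7480 at timepoint 3 against 9814 to 10655. Among the 9, KRT5 reached the highest level, with 2766 to 8305 TMM-scaled CPM over the tested libraries, and KRT17 had 590 to 4230. CDH1, TP63 and EPCAM reached at most 263, 71.6 and 45.6, so the sum says little of such markers. The progesterone receptor PGR and the T cell gene CD3E had no count in any tested library. The estrogen receptor ESR1, the other of the 2 luminal genes listed, passed the filter with 3 to 47 counts in a library. Of 3 endothelial genes 2 passed, PECAM1 with 28 to 135 counts and CDH5 with 0 to 15. The endothelial list summed to 0.463 to 2.39 unscaled CPM over all groups. The fibroblast list summed to 99.8 to 279 unscaled CPM over all groups, mostly DCN, and the leukocyte list to 5.03 to 20.8, mostly CD68. Mitochondrially encoded genes held 0.364% to 0.482% of counts in 3D at timepoint 2 against 0.908% to 1.18% in 2D, and 0.398% to 0.533% at timepoint 3 against 0.589% to 0.684%. Ribosomal protein genes held 13.5% to 18.7% against 9.01% to 11.2%, and 13.1% to 15.2% against 11.7% to 11.8%. At timepoint 1, the reference of the time comparisons, the epithelial and basal markers summed to 9272 to 12914 unscaled CPM in 3D and 9540 to 13036 in 2D, mitochondrially encoded genes held 0.541% to 1.21% and 0.658% to 1.25% of counts, and ribosomal protein genes 6.39% to 13.6% and 6.66% to 13.1%. In 3D the marker sum and the mitochondrial share of every later library thus lay below those of every timepoint 1 library. The part of these levels and shares in the culture and time differences below was not tested. In bulk RNA, fewer cells with a transcript and less of it per cell cannot be told apart.

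**Figure D1:**
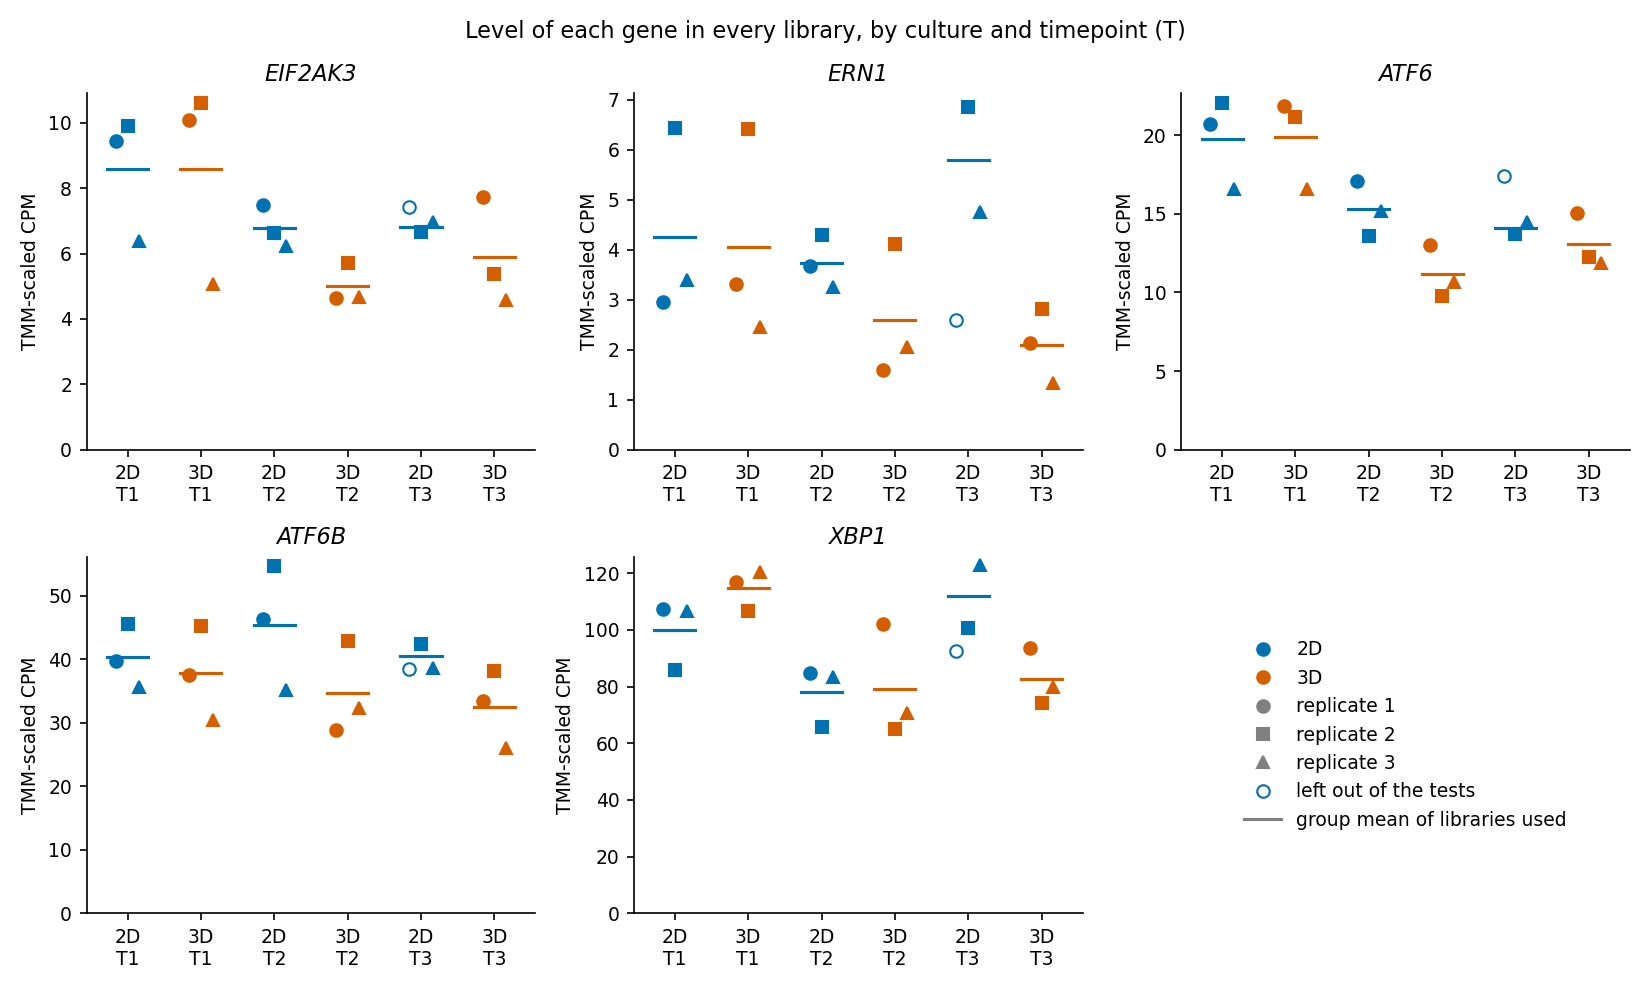
TMM-scaled CPM (vertical axes, from 0, a scale for each gene) of EIF2AK3, ERN1, ATF6, ATF6B and XBP1 in every library, by culture (blue 2D, orange 3D) and timepoint (T1 to T3). Symbols give the replicate number, bars the group mean of the libraries used, and the open circle the library left out; ERN1 stands at 2.59 CPM in that library, below the 4.75 and 6.85 CPM of the other 2D libraries of timepoint 3.

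PERK's gene EIF2AK3 (ENSG00000172071, chromosome 2, 88556740 to 88627464 on hg38, minus strand) was highest at timepoint 1 in both cultures. At timepoint 1 replicates 1, 2 and 3 stood at 9.43, 9.92 and 6.38 CPM in 2D and at 10.1, 10.6 and 5.06 CPM in 3D. Replicate 3 was the lowest library of both groups, and the groups overlapped. At timepoint 2 the values were 7.49, 6.64 and 6.24 CPM in 2D and 4.65, 5.70 and 4.67 CPM in 3D, where all 3D libraries lay below all 2D libraries. At timepoint 3 they were 6.67 and 6.98 CPM in replicates 2 and 3 of 2D, with 7.44 in the left-out library, and 7.73, 5.37 and 4.58 CPM in 3D, so the groups overlapped again. The group means fell in the order 3D timepoint 1 (8.59 ± 3.06 CPM; SD, n = 3), 2D timepoint 1 (8.58 ± 1.92), 2D timepoint 3 (6.83 ± 0.216, n = 2), 2D timepoint 2 (6.79 ± 0.640), 3D timepoint 3 (5.90 ± 1.63) and 3D timepoint 2 (5.01 ± 0.599). The ranges of every pair of neighbours in this order overlapped. The opposite-strand gene AC104134.1 overlaps EIF2AK3 and had a median count of 26; with the counting strand not stated, reads of the pair cannot be told apart.

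IRE1's gene ERN1 (ENSG00000178607, chromosome 17, 64039142 to 64130144, minus strand) varied most among the 5, with 2.78 times between its highest and lowest group mean and 5.17 times between its highest and lowest library. At timepoint 1 it stood at 2.96, 6.43 and 3.40 CPM in 2D and at 3.31, 6.41 and 2.46 CPM in 3D. At timepoint 2 it stood at 3.67, 4.29 and 3.25 CPM in 2D and at 1.59, 4.12 and 2.05 CPM in 3D. Replicate 2 was the highest library of each of these 4 groups, and the cultures overlapped at both timepoints. At timepoint 3 the tested 2D libraries held 6.85 and 4.75 CPM and the 3D libraries 2.13, 2.81 and 1.32 CPM, and the groups did not overlap. The left-out 2D library held 2.59 CPM, inside the 3D range. The order of group means was 2D timepoint 3 (5.80 ± 1.48 CPM; SD, n = 2), 2D timepoint 1 (4.26 ± 1.89, n = 3), 3D timepoint 1 (4.06 ± 2.08), 2D timepoint 2 (3.74 ± 0.523), 3D timepoint 2 (2.59 ± 1.35) and 3D timepoint 3 (2.09 ± 0.745), with every pair of neighbours overlapping. Raw ERN1 counts were low, from 95 to 497 in a library. The opposite-strand gene AC005803.1 overlaps it, with a median count of 4.

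ATF6 (ENSG00000118217, chromosome 1, 161766320 to 161964070, plus strand) was the one gene of the 5 with an edgeR adjusted p under 0.05 over time in the fit without the replicate number. At timepoint 1 it stood at 20.7, 22.0 and 16.6 CPM in 2D and at 21.9, 21.1 and 16.6 CPM in 3D, nearly the same in both cultures. At timepoint 2 it stood at 17.1, 13.6 and 15.2 CPM in 2D and at 13.0, 9.80 and 10.7 CPM in 3D. All 3D libraries of timepoint 2 lay below all 2D libraries of that timepoint and below all 3D libraries of timepoint 1, as in 13.0% and 13.9% of tested genes. At timepoint 3 the tested 2D libraries held 13.7 and 14.5 CPM, the left-out one 17.4, and the 3D libraries 15.1, 12.2 and 11.9 CPM, so the cultures overlapped. The order was 3D timepoint 1 (19.9 ± 2.86 CPM; SD, n = 3), 2D timepoint 1 (19.8 ± 2.84), 2D timepoint 2 (15.3 ± 1.73), 2D timepoint 3 (14.1 ± 0.547, n = 2), 3D timepoint 3 (13.1 ± 1.74) and 3D timepoint 2 (11.1 ± 1.65), and again all neighbours overlapped. AL391825.1, which overlaps it on the same strand, had a median count of 3.

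ATF6B (ENSG00000213676, chromosome 6, 32115264 to 32128253, minus strand), the gene of the weaker activator of the ATF6 pair, varied least between groups, by 1.40 times. It stood at 39.7, 45.5 and 35.7 CPM in 2D and 37.5, 45.2 and 30.5 CPM in 3D at timepoint 1. It stood at 46.4, 54.6 and 35.1 CPM in 2D and 28.9, 42.8 and 32.2 CPM in 3D at timepoint 2. The cultures overlapped at both times, and replicate 2 was the highest library of each group. At timepoint 3 the tested 2D libraries held 42.4 and 38.6 CPM, the left-out one 38.5, and the 3D libraries 33.4, 38.1 and 26.0 CPM, with no overlap. In the order of means the 3 groups of 2D stood above the 3 groups of 3D: 2D timepoint 2 (45.4 ± 9.83 CPM; SD, n = 3), 2D timepoint 3 (40.5 ± 2.67, n = 2), 2D timepoint 1 (40.3 ± 4.91), 3D timepoint 1 (37.8 ± 7.38), 3D timepoint 2 (34.6 ± 7.25) and 3D timepoint 3 (32.5 ± 6.10). All neighbours overlapped. The same-strand gene AL662884.2 overlaps ATF6B and had a median count of 63.

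XBP1 (ENSG00000100219, chromosome 22, 28794555 to 28800597, minus strand) had the most counts, 3330 to 10069 in a library. At timepoint 1 it stood at 107, 85.8 and 107 CPM in 2D and at 117, 107 and 120.4 CPM in 3D. At timepoint 2 it stood at 84.8, 65.7 and 83.4 CPM in 2D and at 102, 65.0 and 70.5 CPM in 3D. All libraries of timepoint 2 lay below all those of timepoint 1 in the same culture, as in 11.6% of tested genes in 2D and 13.9% in 3D, and the cultures overlapped at both times. At timepoint 3 the tested 2D libraries held 101 and 123 CPM, the left-out one 92.6, and the 3D libraries 93.6, 74.1 and 79.9 CPM. There the tested groups did not overlap, but the left-out library lay below the highest 3D library. The order was 3D timepoint 1 (115 ± 7.23 CPM; SD, n = 3), 2D timepoint 3 (112 ± 15.6, n = 2), 2D timepoint 1 (99.97 ± 12.3), 3D timepoint 3 (82.5 ± 10.0), 3D timepoint 2 (79.3 ± 20.1) and 2D timepoint 2 (77.9 ± 10.7), with all neighbours overlapping.

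The first comparison asked whether the matrix above the cells changed the mRNA of the sensors. At timepoint 1 edgeR's quasi-likelihood test called 0 of the 5 genes and 0% of all tested genes at a Benjamini-Hochberg adjusted p under 0.05. It gave 0 of the 5 at an unadjusted p under 0.05, and the log2 fold changes of 3D against 2D lay between -0.09 (ATF6B) and 0.20 (XBP1). At timepoint 2 it called 0 of the 5, against 1.49% of all genes. The fold changes were -0.54 for ERN1 (SE 0.42), -0.45 for ATF6 (SE 0.17), -0.44 for EIF2AK3 (SE 0.26), -0.39 for ATF6B (SE 0.21) and 0.02 for XBP1 (SE 0.18). Both EIF2AK3 and ATF6 had every 3D library below every 2D library, as did 13.0% of tested genes. The median of the 5 was -0.44, and that over all tested genes -0.03. ATF6 alone had an unadjusted p under 0.05 (0.0186; edgeR adjusted p = 0.164). DESeq2 and limma-voom called none of the 5 at timepoints 1 and 2.

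Including the replicate number as a block, which compares libraries of one date, called ATF6 at timepoint 2 and 15.9% of all genes. ATF6 then had a log2 fold change of -0.46 (SE 0.13; edgeR adjusted p = 0.0298, and 0.0319 to 0.142 when 1 of the 6 libraries was left out, past the threshold in 2 of those 6 fits). ATF6B had -0.38 (SE 0.12; edgeR adjusted p = 0.0504), ERN1 -0.64 (SE 0.23; adjusted p = 0.0755) and EIF2AK3 -0.44 (SE 0.21; adjusted p = 0.165). Date by date, in replicates 1, 2 and 3, the log2 ratio of 3D to 2D was -0.39, -0.47 and -0.51 for ATF6. It was -0.69, -0.22 and -0.42 for EIF2AK3, -1.21, -0.06 and -0.66 for ERN1, and -0.68, -0.35 and -0.12 for ATF6B. These 4 genes were lower in 3D on 3 of 3 dates. The share of all tested genes with a common direction on every date was not counted, here or below. XBP1 was at 0.27, -0.01 and -0.24, with no common direction.

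At timepoint 3 all 5 genes lay below 0, with a median of -0.32 against 0.02 over all genes, and edgeR called 0 of the 5 against 1.5% of all genes. Of all tested genes 20.2% had every tested 3D library below every 2D library, as ERN1, ATF6B and XBP1 did. ERN1 stood at 5.80 ± 1.48 CPM in 2D (SD, n = 2) and 2.09 ± 0.745 CPM in 3D (n = 3), a log2 fold change of -1.47 (SE 0.46; edgeR adjusted p = 0.120). XBP1 had -0.44 (SE 0.20; adjusted p = 0.247), ATF6B -0.32 (SE 0.23; adjusted p = 0.465), EIF2AK3 -0.21 (SE 0.29; adjusted p = 0.718) and ATF6 -0.11 (SE 0.19; adjusted p = 0.774). ERN1 and XBP1 had an unadjusted p under 0.05. DESeq2 called ERN1 (adjusted p = 0.0324), as did edgeR without the filter (0.00032), and limma-voom called none of the 5. The shares of all genes called under these 3 settings are not given here.

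With the replicate block ERN1 and XBP1 passed at timepoint 3, as did 9.75% of all genes. ERN1 then had -1.39 (SE 0.26; edgeR adjusted p = 0.00469) and XBP1 -0.52 (SE 0.13; adjusted p = 0.0214). ERN1 kept its call in 4 of 5 fits that left out 1 library and lost it without 2D timepoint 3 replicate 3 (adjusted p = 0.0807). XBP1 kept its call in 1 of 5, without 3D timepoint 3 replicate 1, and had an adjusted p of 0.0514 to 0.166 in the other 4. Bringing the left-out 2D library back moved ERN1 to -1.18 (edgeR adjusted p = 0.424) and, with the block, to -1.15 (adjusted p = 0.0269). It moved XBP1 to -0.35 (adjusted p = 0.489) and, with the block, to -0.36 (adjusted p = 0.128). On the date of replicate 1, which that library supplies, the ratio of 3D to 2D was -0.28 for ERN1 and 0.02 for XBP1, while on the other dates it was -1.28 and -1.84 for ERN1 and -0.44 and -0.62 for XBP1.

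**Figure D2:**
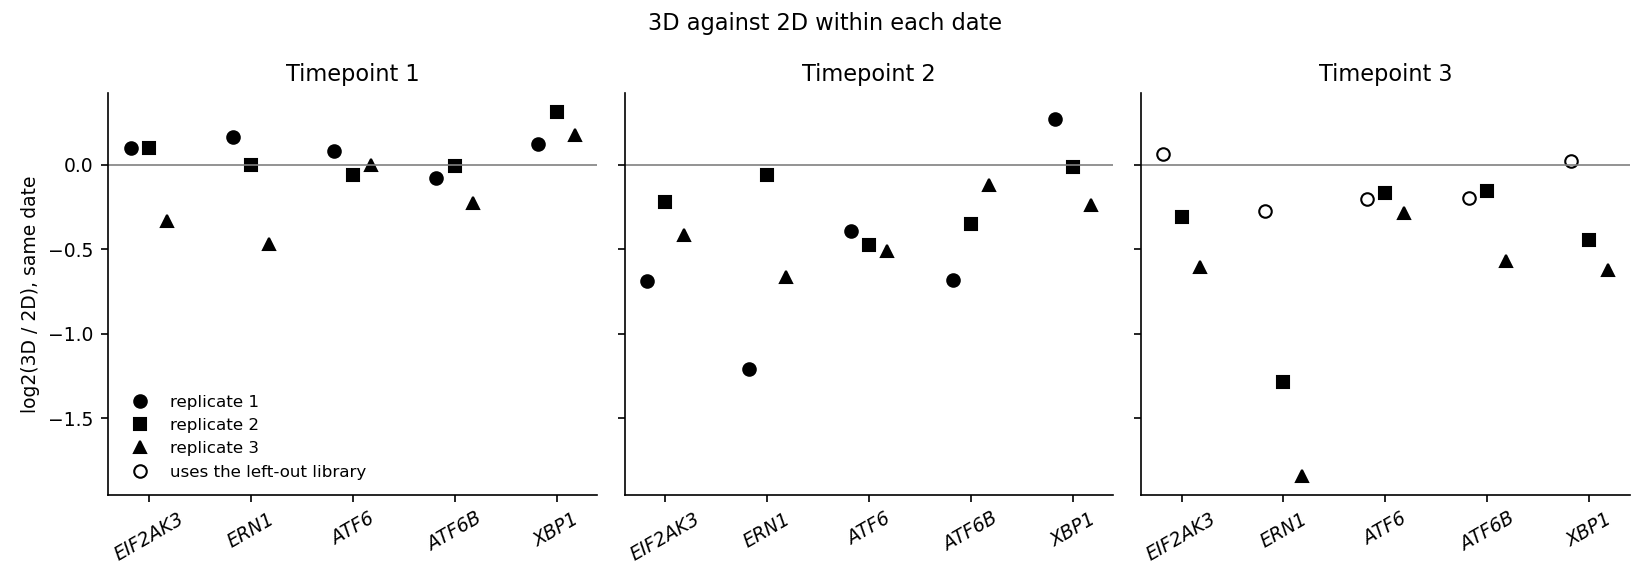
Log2 ratio of 3D to 2D CPM (vertical axis) within each date for EIF2AK3, ERN1, ATF6, ATF6B and XBP1 at timepoints 1, 2 and 3. Symbols give the replicate number, and open circles use the library left out of the tests; at timepoint 2 ATF6 lies between -0.51 and -0.39 on all 3 dates, while ERN1 spreads from -1.21 to -0.06.

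The second comparison followed each culture over time. In 2D edgeR called 0 of the 5 genes from timepoint 1 to 2, where 5.87% of all genes were called. Without a call, ATF6 had a log2 fold change of -0.37 (SE 0.17; adjusted p = 0.262), XBP1 -0.36 (SE 0.18; adjusted p = 0.310), EIF2AK3 -0.34 (SE 0.26), ERN1 -0.19 (SE 0.41) and ATF6B 0.17 (SE 0.21). From timepoint 1 to 3 in 2D edgeR called 0 of the 5 against 4.86% of all genes, with ATF6 at -0.49 (SE 0.20; adjusted p = 0.181), ERN1 at 0.45 (SE 0.45) and XBP1 at 0.16 (SE 0.20). From timepoint 2 to 3 in 2D edgeR called 0 of the 5 and 0% of all genes, and XBP1 had 0.52 (SE 0.20; adjusted p = 0.709). In each of these 3 comparisons 1 of the 5 genes had an unadjusted p under 0.05, XBP1 in the last and ATF6 in the others. The block called none of the 5 in them, where it called 13.7%, 10.5% and 0.0377% of all genes, and neither DESeq2 nor limma-voom called any.

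In 3D ATF6 fell by 0.83 on the log2 scale from timepoint 1 to 2 (SE 0.17; edgeR adjusted p = 0.00526) (a change of -43.8%), and it was the one call among the 5 where 15.1% of all genes were called. It fell on 3 of 3 dates, by 0.75, 1.11 and 0.64 in replicates 1, 2 and 3. It was called under each of 15 alternative settings, with log2 fold changes from -0.96 to -0.75. From timepoint 1 to 3 in 3D ATF6 fell by 0.60 (SE 0.17; edgeR adjusted p = 0.0339), again the one call, against 11% of all genes. This later call ended in 6 of 15 alternatives: without 3D timepoint 1 replicate 1 (adjusted p = 0.116) or 2 (0.114), without 3D timepoint 3 replicate 2 (0.0938) or 3 (0.131), without the filter (0.0754) and with the compared groups alone (0.0790). From timepoint 2 to 3 in 3D edgeR called 0 of the 5 and 0% of all genes; 0 of the 5 had an unadjusted p under 0.05, and ATF6 had 0.23 (SE 0.17; adjusted p = 0.941). The block, DESeq2 and limma-voom also called none of the 5 there.

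**Figure D3:**
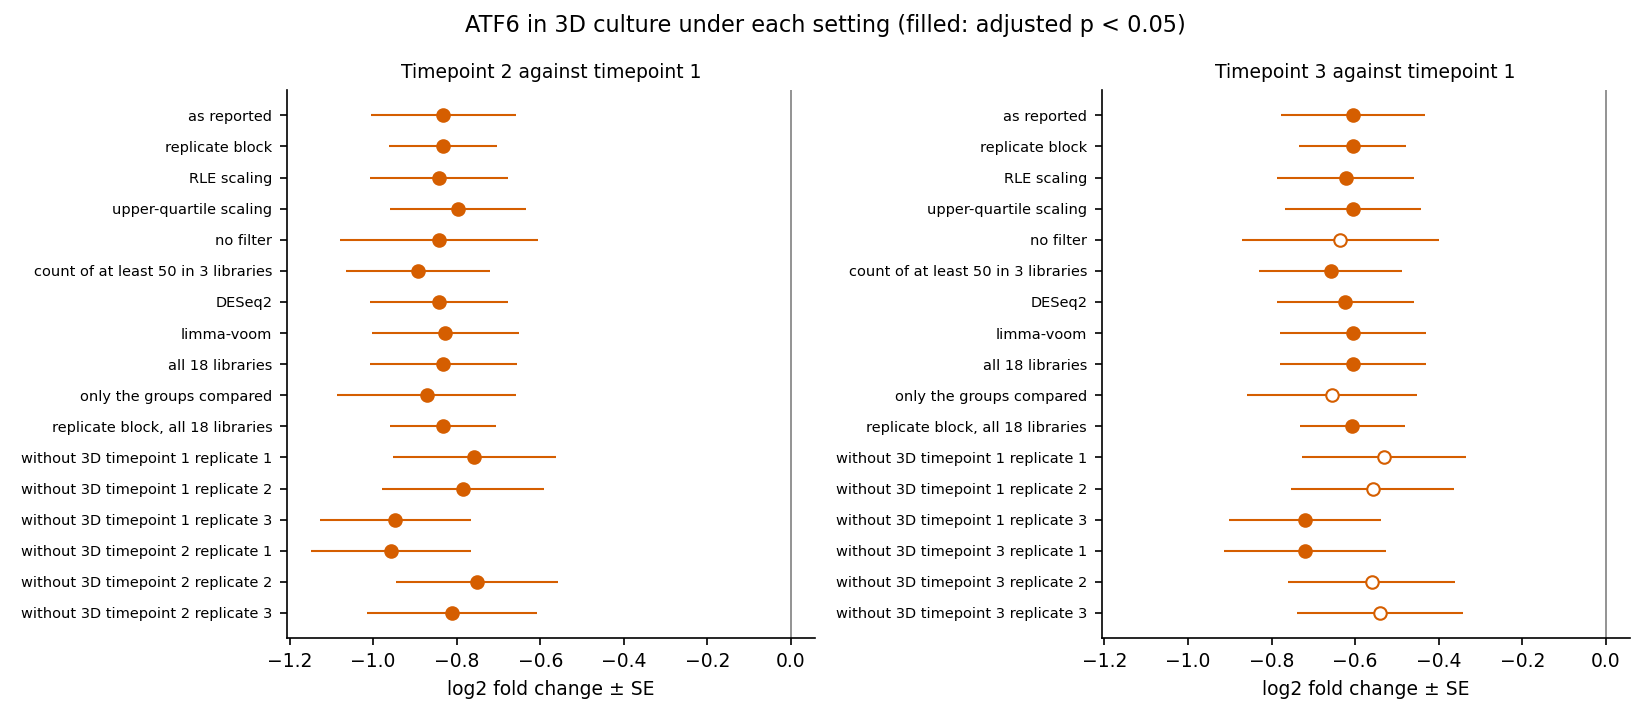
Log2 fold change ± SE (horizontal axis) of ATF6 in 3D culture for timepoints 2 and 3 against timepoint 1, under the reported fit and each alternative setting (rows). Filled points passed an adjusted p of 0.05; all points of timepoint 2 are filled, while 6 of timepoint 3 are open.

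The other 4 genes also lay below 0 in 3D at both later timepoints; EIF2AK3, ERN1 and XBP1 passed in some fits of at least 1 of these comparisons, and ATF6B passed in none that was run. From timepoint 1 to 2 EIF2AK3 had a log2 fold change of -0.78 (SE 0.27; edgeR adjusted p = 0.0582), XBP1 -0.53 (SE 0.18; adjusted p = 0.0584), ERN1 -0.66 (SE 0.42; adjusted p = 0.308) and ATF6B -0.13 (SE 0.21; adjusted p = 0.738). The median of the 5 was -0.66, against 0.01 over all genes. With the replicate block 4 of the 5 passed, against 28.4% of all genes: ATF6 (-0.83, SE 0.13; edgeR adjusted p = 0.000424), XBP1 (-0.55, SE 0.11; 0.00296), EIF2AK3 (-0.73, SE 0.21; 0.0171) and ERN1 (-0.65, SE 0.23; 0.0481). When 1 of the 6 libraries was left out of the blocked fit, XBP1 passed in 6 of 6 fits, EIF2AK3 in 3 and ERN1 in 1. DESeq2 called ATF6, EIF2AK3 and XBP1, with adjusted p of 0.0223 for EIF2AK3 and 0.0218 for XBP1, and limma-voom called ATF6 and XBP1. The shares of all genes that DESeq2 and limma-voom called are not given here, so these calls lack that reference.

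From timepoint 1 to 3 in 3D ERN1 had -0.96 (SE 0.42; edgeR adjusted p = 0.156), EIF2AK3 -0.54 (SE 0.26; 0.207), XBP1 -0.47 (SE 0.18; 0.107) and ATF6B -0.22 (SE 0.21; 0.556), and the median of the 5 was -0.54 against 0.04 over all genes. With the replicate block ERN1 (-0.91, SE 0.23; edgeR adjusted p = 0.0118), ATF6 (-0.61, SE 0.13; 0.00396) and XBP1 (-0.48, SE 0.11; 0.00755) passed, against 23.9% of all genes. XBP1 kept its call in 6 of 6 fits that left out 1 library, and ERN1 in 3. On each of the 3 dates ERN1 lay below its timepoint 1 level, by -0.64, -1.19 and -0.89, and so did XBP1, by -0.32, -0.52 and -0.59. ATF6B reached an adjusted p under 0.05 in none of the 12 comparisons when all 17 libraries were used, with or without the block. For 3D against 2D at timepoint 2 the blocked fit gave it an adjusted p of 0.0451 with all 18 libraries and 0.0454 without 3D timepoint 2 replicate 3, the lowest of the 6 fits that left out 1 library.

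**Figure D4:**
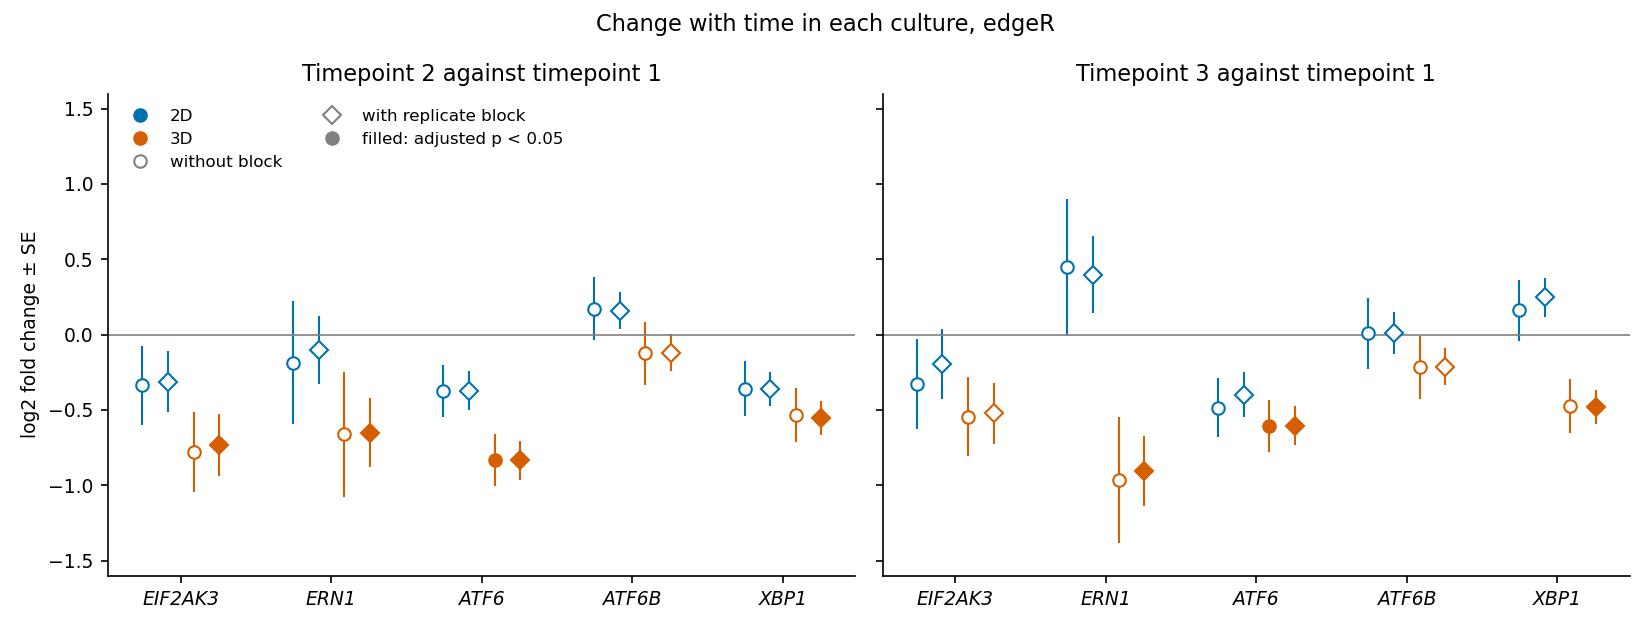
Log2 fold change ± SE (vertical axis) of the 5 genes from timepoint 1 to 2 (left) and to 3 (right) in 2D (blue) and 3D (orange), without the replicate block (circles) and with it (diamonds); filled symbols had an edgeR adjusted p under 0.05. All filled symbols are 3D and below 0, and ERN1 at timepoint 3 lies at 0.45 in 2D and -0.96 in 3D.

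The third comparison tested whether the change with time differed between cultures. edgeR called 0 of the 5 genes from timepoint 1 to 2, where 0% of all genes were called and 0 of the 5 had an unadjusted p under 0.05, so the ATF6 change in 3D was not shown to differ from that in 2D (difference of log2 fold changes -0.46, SE 0.24; adjusted p = 0.600). From timepoint 1 to 3 it called 0 of the 5, against 0.183% of all genes, with ERN1 at -1.41 (SE 0.62; unadjusted p = 0.0360, adjusted p = 0.579) and XBP1 at -0.64 (SE 0.27; unadjusted p = 0.0316, adjusted p = 0.572). With the block 0 of the 5 passed from timepoint 1 to 2, against 1.31% of all genes, and 0 from timepoint 1 to 3, against 1.56%. In that last fit XBP1 had -0.73 (SE 0.17; edgeR adjusted p = 0.0511) and ERN1 -1.30 (SE 0.34; adjusted p = 0.0759). From timepoint 2 to 3 0 of the 5 and 0% of all genes passed in either fit. Without the block 0 of the 5 had an unadjusted p under 0.05 there; with it 2 did, XBP1 (-0.54, SE 0.17; unadjusted p = 0.00740, edgeR adjusted p = 0.650) and ERN1 (-0.76, SE 0.35; unadjusted p = 0.0490, adjusted p = 0.650). Neither DESeq2 nor limma-voom called any of the 5 in the 3 tests.

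Levels also differed between dates. ERN1 lay above its group mean in 6 of 6 libraries of replicate 2, by 0.53 on the log2 scale on average, and below it in 6 of 6 libraries of replicate 3, by -0.35 on average. ATF6B showed the same order, at 0.23 and -0.21, while XBP1 lay below its group mean in 6 of 6 libraries of replicate 2 (-0.18). EIF2AK3 was lower in replicate 3 (-0.26), below its group mean in 5 of 6 libraries, and ATF6 was above it in 5 of 5 libraries of replicate 1 (0.17).

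The 5 genes fell into no single pattern over the 17 libraries. As a description, Pearson's r of log2 CPM was highest for EIF2AK3 with ATF6 (0.84) and ERN1 with ATF6B (0.83), and lowest for ATF6B with XBP1 (-0.23). ERN1 and XBP1, enzyme and substrate, had r = 0.10, and 0.56 once the mean of each date was removed. All libraries share 3 dates and 6 groups, so the points are not independent. Among genes with a mean count of at least 50, those most like EIF2AK3 were GPBP1L1 (r = 0.96), LRP12 (0.95), SLC16A1 (0.95), PPP1R15B (0.94) and MEGF9 (0.94). For ERN1 they were TNKS1BP1 (0.96), ANKRD11, MMP14, TMEM63B and ABL1 (0.94). For ATF6 they were MIER3 (0.96), C16orf72, TNKS2, MBNL2 and SERINC1 (0.95), and for ATF6B IL18BP (0.95), PLBD2, KIAA0319L, SPPL2B and GLG1 (0.93). XBP1 had lower values, with AC027644.4 (0.86), HERPUD1 (0.85), DYRK3 (0.85), SAV1 (0.85) and RABGEF1 (0.84).

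The partners of the sensors were counted next, between cultures first. Of 21 genes that act with IRE1, 0 passed at timepoint 2, against 1.49% of all tested genes, and 0 at timepoint 3, against 1.5%, with medians of 0.00 and 0.13. Shares this low over all genes leave little to read in 0 calls among 21 genes. ZBTB8OS acts with the tRNA ligase complex that joins the cut XBP1 mRNA. It had 0.73 at timepoint 2 (edgeR adjusted p = 0.103, and 0.00813 with the block) and 0.67 at timepoint 3 (0.189). RTRAF, a subunit of that complex, had 0.73 at timepoint 3 (0.198, and 0.00923 with the block). ERN2, the IRE1 beta gene of mucous epithelia, had low counts, with 0.328 ± 0.129 CPM in 2D at timepoint 2 (SD, n = 3), against 0.712 ± 0.320 in the 3D libraries (n = 3; adjusted p = 0.199). TMBIM6, an inhibitor of IRE1, had -0.26 at timepoint 2 (adjusted p = 0.323), DDRGK1, which stabilises IRE1, -0.37 at timepoint 3 (0.218), and DNAJB9, the co-chaperone ERdj4 that represses IRE1, -0.38 at timepoint 3 (0.512). In 3D over time ZBTB8OS rose by timepoint 2 (0.75) and TMBIM6 fell by 0.52, where 15.1% of all genes were called. At timepoint 3 none of the 21 passed, against 11% of all genes. The medians were -0.21 and -0.14. With the block 1 of the 21 rose and 7 fell at timepoint 2, against 14.8% and 13.6% of all genes. At timepoint 3 the block gave 1 risen and 4 fallen, against 11.4% and 12.5%.

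Of 19 genes of PERK partners and eIF2 control, 0 passed at timepoint 2, against 1.49% of all tested genes. At timepoint 3, 1 passed, against 1.5%, and the medians were -0.11 and 0.11. The one was PPP1R15A, the stress-induced phosphatase subunit GADD34 that reverses PERK's mark; it is also among the PERK-ATF4 targets below. At timepoint 3 it stood at 20.3 ± 3.17 CPM in 2D (SD, n = 2) and 4.28 ± 0.141 CPM in 3D (n = 3), and it fell by 2.25 on the log2 scale in 3D against 2D (SE 0.25; edgeR adjusted p = 0.000251). At timepoint 2 PPP1R15A had -0.78 (adjusted p = 0.0820; 0.0216 with the block), its constitutive relative PPP1R15B -0.47 (0.185), and the catalytic subunit PPP1CA 0.51 (0.191; 0.0399 with the block). None of the other eIF2 kinases passed: at timepoint 3 EIF2AK1 had 0.11 (adjusted p = 0.718), EIF2AK2 0.55 (0.340) and EIF2AK4 0.23 (0.506), and EIF2S1, which encodes eIF2 alpha, had 0.56 (0.307). ATF4 mRNA, whose translation PERK raises, had 0.37 at timepoint 2 (adjusted p = 0.437) and -0.23 at timepoint 3 (0.680). In 3D from timepoint 1 to 2, 3 of the 19 fell and 0 rose, against 7.76% and 7.31% of all genes. From timepoint 1 to 3, again 3 fell and 0 rose, against 6.95% and 4.07%. The medians were 0.02 and 0.05. With the block 5 fell and 0 rose by timepoint 2, against 13.6% and 14.8%. By timepoint 3 the block gave 4 fallen and 1 risen, against 12.5% and 11.4%.

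Of 15 tested partners and relatives of ATF6, among 17 listed, 0 passed at timepoint 2 or 3, with medians of -0.14 and -0.08. Over all tested genes 1.49% and 1.5% passed. MBTPS1 and MBTPS2, the proteases that cut ATF6, had -0.21 (adjusted p = 0.509) and -0.48 (0.383) at timepoint 2 and -0.10 (0.788) and 0.32 (0.631) at timepoint 3. CREB3, a related membrane-bound factor, had 0.43 at timepoint 2 (adjusted p = 0.136; 0.0254 with the block), GTF2I, which binds ER stress response elements, -0.35 (0.281) and CREBZF -0.51 (0.303). At timepoint 3 NFYB, which binds CCAAT boxes, had 0.79 (adjusted p = 0.327), PDIA5 0.33 (0.393) and CREBZF -0.42 (0.445). The chaperone gene HSPA5 (BiP) did not pass between cultures, at -0.31 at timepoint 2 (adjusted p = 0.554) and -0.30 at timepoint 3 (0.598), but edgeR called it in every comparison of a later timepoint with timepoint 1. It fell by 1.81 from timepoint 1 to 2 in 3D, from 167 ± 62.1 to 47.7 ± 6.95 CPM (SD, n = 3 each; adjusted p = 0.000552), and by 1.51 in 2D, from 168 ± 52.4 to 59.0 ± 5.73 CPM (adjusted p = 0.00374).

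**Figure D5:**
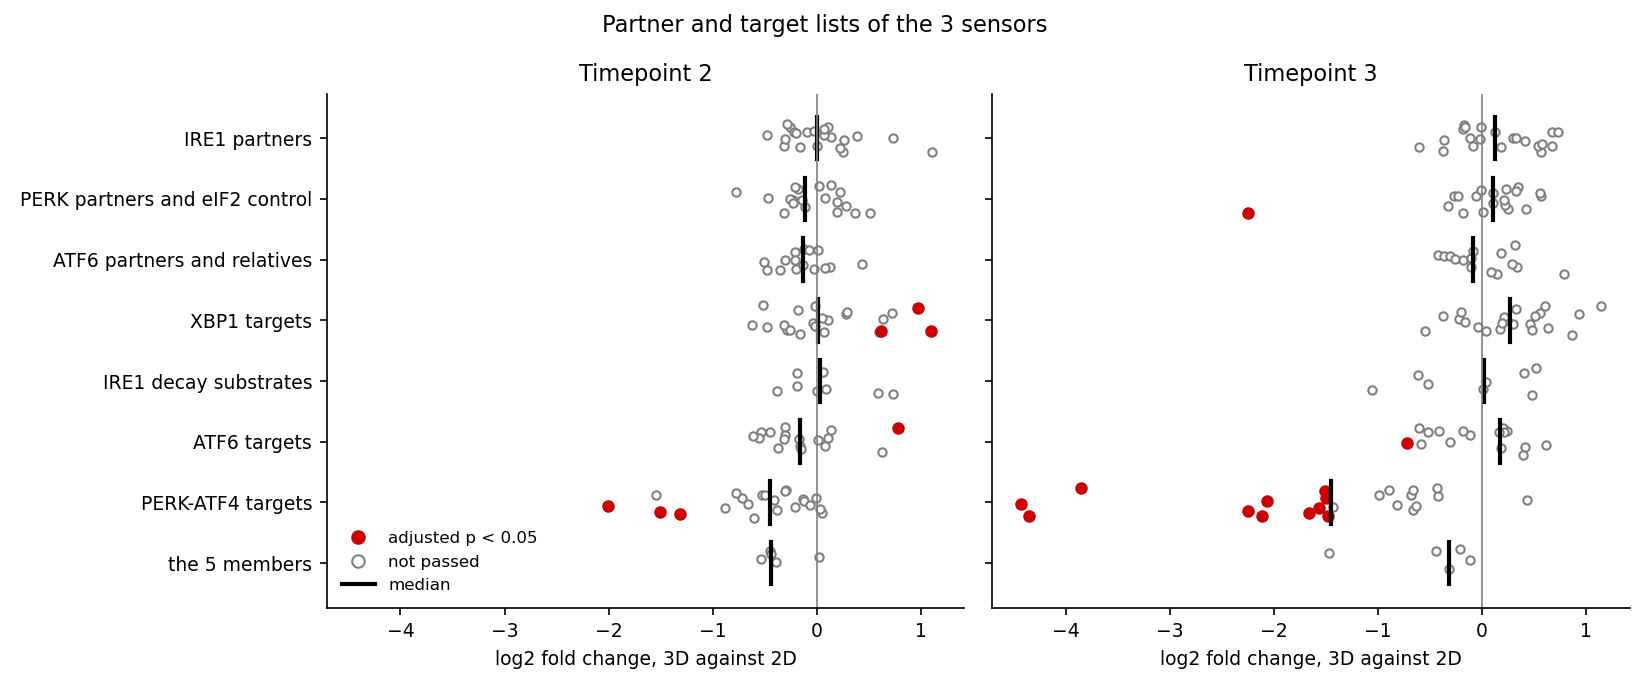
Log2 fold change of 3D against 2D (horizontal axis) for the tested genes of 7 lists and for EIF2AK3, ERN1, ATF6, ATF6B and XBP1, at timepoints 2 and 3. Red points had an edgeR adjusted p under 0.05 and black bars are medians; DERL3, which had no count in 2D at timepoint 3, is not drawn but is in the medians, and the PERK-ATF4 targets reach a median of -1.45 at timepoint 3 while the 5 genes have -0.32.

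The targets of each arm were counted in the same way. The lists of partners and targets share genes, so their counts are not independent. DNAJC3, for instance, is among the PERK partners, the XBP1 targets and the ATF6 targets, and HSPA5 among the ATF6 partners and the ATF6 targets. Of 22 XBP1 targets 3 rose at timepoint 2, as did 0.705% of all tested genes, and 0 passed at timepoint 3, where 0.231% of all genes rose; the medians were 0.01 and 0.27. The 3 were SEC61B, SEC61G and SERP1, all of the protein translocation channel or its partners, with log2 fold changes of 0.97, 1.10 and 0.62 and edgeR adjusted p of 0.0308, 0.0415 and 0.0450. XBP1 itself had 0.02 there. With the block 6 of the 22 rose and 0 fell at timepoint 2, against 9% and 6.86% of all genes. For timepoint 3 the block gave 3 risen and 0 fallen, against 4.45% and 5.3%. At timepoint 3 KDELR3, a receptor that returns proteins to the endoplasmic reticulum, had 1.14 (adjusted p = 0.106; 0.00772 with the block), SEC61G 0.93 (0.109; 0.0156 with the block) and SRP19 0.86 (0.136; 0.00669 with the block). In 3D from timepoint 1 to 2, where XBP1 had -0.53, 5 of the 22 rose (KDELR3, SEC61B, SEC61G, SERP1 and SRP19) and DNAJC3, a co-chaperone of BiP, fell, while 7.31% of all tested genes rose and 7.76% fell. The median of the 22 was -0.15, with 8 above 0 and 14 below. With the block 5 rose and 8 fell, against 14.8% and 13.6% of all genes. From timepoint 1 to 3 in 3D 0 of the 22 rose and 1 fell, against 4.07% and 6.95% of all genes. The block gave 5 risen and 2 fallen over that time, against 11.4% and 12.5%. Of 8 tested substrates of IRE1-dependent decay, 0 passed at timepoint 2 or 3, against 1.49% and 1.5% of all tested genes. BLOC1S1, the best known of these substrates, had 0.73 at timepoint 2 (adjusted p = 0.161), with TNFRSF10B at -0.38 (0.289) and SCARA3 at 0.58 (0.301). At timepoint 3 TNFRSF10B had -0.52 (adjusted p = 0.209, and 0.0440 with the block), COL6A1 -0.62 (0.406) and PDGFRB -1.06 (0.445). PDGFRB had low counts, from 2 to 31 in a tested library.

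Of 18 ATF6 targets 1 rose at timepoint 2 and 1 fell at timepoint 3, with medians of -0.17 and 0.17. Over all tested genes 0.705% rose at timepoint 2 and 1.26% fell at timepoint 3. With the block 2 rose and 1 fell at timepoint 2, against 9% and 6.86% of all genes. At timepoint 3 the block gave 1 risen and 1 fallen, against 4.45% and 5.3%. SDF2L1, a partner of BiP, rose by 0.78 at timepoint 2 (edgeR adjusted p = 0.0235). There MANF, a secreted stress factor, had 0.62 (adjusted p = 0.132; 0.00797 with the block) and the lectin chaperone CANX -0.54 (0.204). HERPUD1, which serves degradation at the endoplasmic reticulum, fell by 0.72 at timepoint 3 (adjusted p = 0.0276), where MANF had 0.61 (0.197; 0.0410 with the block). DERL3 had no count in 2D at timepoint 3 and 0.111 ± 0.111 CPM in 3D (SD, n = 3), and no fold is given. Over time the list lay low in both cultures: from timepoint 1 to 2 its median was -0.57 in 3D, with 5 of 18 fallen and 0 risen, and -0.47 in 2D, with 1 fallen; over all tested genes 7.76% fell in 3D and 3.22% in 2D. With the block 12 of 18 fell in 3D and 7 in 2D, against 13.6% and 7.06% of all genes.

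Of 22 PERK-ATF4 targets 3 fell in 3D against 2D at timepoint 2 and 11 at timepoint 3, with 0 risen and medians of -0.45 and -1.45, where 0.785% and 1.26% of all tested genes fell. With the block 9 and 17 fell, against 6.86% and 5.3% of all genes. EIF2AK3 and ATF4, upstream of them, had -0.21 and -0.23 at timepoint 3 and passed in neither fit. At timepoint 2 STC2 fell by 1.32, ATF3 by 2.00 and ADM2 by 1.51 (edgeR adjusted p = 0.0113, 0.0130 and 0.0460). At timepoint 3 DDIT3, the transcription factor CHOP, stood at 36.5 ± 3.74 CPM in 2D (SD, n = 2) and 8.73 ± 0.931 CPM in 3D (n = 3), a log2 fold change of -2.06 (edgeR adjusted p = 9.5e-05). ATF3, another stress factor, had -4.43 and ADM2 -4.36 there. In 2D 12 of the 22 rose from timepoint 1 to 3, against 2.5% of all genes, and 0 fell, with a median of 1.15, while EIF2AK3 had -0.33 (edgeR adjusted p = 0.595). In 3D 1 rose and 3 fell over the same time, against 4.07% and 6.95% of all genes, with a median of -0.25. The 2D group of timepoint 3 had n = 2 in these counts, and no list was counted with its left-out library.

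In the authors' deposited tables for each timepoint, which hold 13677 genes, none of the 5 passed an adjusted p of 0.05. Of all 13677 genes, 0, 489 and 294 passed at timepoints 1, 2 and 3. The authors' deposited table gives ERN1 a log2 fold change of -1.54 at timepoint 3 (adjusted p = 0.0868) and XBP1 -0.46 (adjusted p = 0.198). For ATF6 at timepoint 2 the authors' deposited table gives -0.50 (adjusted p = 0.106).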

How the data were processed

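Poly-A RNA was sequenced as 50-base single-end reads, per the labels' protocols. The deposited table holds raw counts per gene; STAR 2.7.1a, HOMER, edgeR, limma and hg38 are named without a role in the submitters' processing notes, and neither these notes nor the labels state the annotation release, the strand setting or the filters. The authors' deposited tables also give log2 fold changes and p-values of 3D against 2D, used only where named; per the file headers they also hold the authors' t and log-odds scores, not used here.

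The counts of 17 libraries were tested with edgeR 4.0.16 (R 4.3.3): low-count filter (filterByExpr), TMM scaling, 1 model over 6 groups, quasi-likelihood tests of 12 comparisons and Benjamini-Hochberg adjustment over 18592 genes, called under 0.05. Standard errors are the fold change divided by the square root of F. Group values are mean ± SD of TMM-scaled CPM. The procedure was tested on simulated data. The simulated counts held no difference between dates, so they cannot decide between the fits with and without the block. Alternatives were the replicate number as a block, 2 other scalings, 2 other filters, DESeq2 1.42.0, limma-voom (limma 3.58.1), all 18 libraries, the compared groups alone and each library left out. The labels tie each replicate number to 1 date, and the numbers were taken to pair the libraries. Deviations from group means of same-numbered 2D and 3D libraries of a timepoint correlated at 0.186 to 0.513 over 8 pairs. Pairs of different numbers were not compared, so these values cannot show that the correlation is particular to the number. With 2 libraries in 2D at timepoint 3, their deviations mirror each other, and the pairs there are not independent.

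Nothing says that replicates came from separate cultures, so p-values measure the spread between these libraries, which may be technical. The 5 genes, the lists and the tests were chosen with earlier results of these data known. Named beside the 5 genes were up to 3 genes of each list with the smallest p for 3D against 2D at timepoints 2 and 3, landmark genes (HSPA5, DNAJB9, ATF4, DDIT3, ERN2, MBTPS1, MBTPS2 and 3 eIF2 kinases), and the 5 genes of highest correlation with each. DERL3, TMBIM6 and ZBTB8OS over time, and the XBP1 targets that passed in 3D over time, were named after their values were seen. Sequences came from RefSeq (GRCh38.p14) and GENCODE release 29.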

Additional observations from a re-analysis of the deposited data

Results flagged for a closer look

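ERN1 and XBP1 moved in opposite directions in the 2 cultures from timepoint 1 to 3 on every date tested. ERN1 had log2 ratios of 0.09 and 0.48 on the 2 dates of 2D and of -0.64, -1.19 and -0.89 on the 3 dates of 3D, and XBP1 had 0.23 and 0.20 against -0.32, -0.52 and -0.59. The difference between the cultures' fold changes was -1.41 for ERN1 (edgeR adjusted p = 0.579) and -0.64 for XBP1 (edgeR adjusted p = 0.572), and neither passed. In the 2D library left out of the tests the direction was the other one, with -0.20 for ERN1 and -0.22 for XBP1.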

How the results depend on the processing

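Over 965 recomputed values, 897 kept their direction and their side of the threshold, 20 passed it only under the alternative, 6 no longer passed (all ATF6 in 3D from timepoint 1 to 3), 42 that passed in neither fit changed sign and 0 called values did. The replicate block moved the number of the 5 genes called from 0 to 1 for 3D against 2D at timepoint 2, from 0 to 2 at timepoint 3, from 1 to 4 in 3D from timepoint 1 to 2 and from 1 to 3 from timepoint 1 to 3, and changed no other of the 12 counts. At timepoint 3 the count for 3D against 2D was 1 without the filter and 1 with DESeq2. In 3D from timepoint 1 to 2 it was 2 without the filter, 3 with a count of at least 50 in 3 libraries, 3 with DESeq2, 2 with limma-voom and 1 to 2 when 1 library was left out (2 without 3D timepoint 1 replicate 3 or 3D timepoint 2 replicate 1). From timepoint 1 to 3 it was 0 with the compared groups alone and 0 to 2 when 1 library was left out. With the block, and chosen after seeing the data, all 18 libraries gave 2 calls for 3D against 2D at timepoint 2 and 1 at timepoint 3. Leaving out 1 library from the blocked fits gave 0 to 2 calls at timepoint 2, 0 to 2 at timepoint 3, and 2 to 4 in 3D from timepoint 1 to 2. Where an arm was left with 1 library, that library was assumed to vary like the other groups. Apart from the settings that leave out libraries or genes, the cause of these moves was not tested. Outside the reported fit and the blocked fit of 17 libraries, the shares of all genes called are not given. The counts of called genes under the other settings lack that reference. ERN1 had the fewest counts of the 5 genes, 95 to 497 in a library, and the widest SE.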
